A study of Mus musculus with 9 samples.

Results

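Integrins, the laminins and nidogens of the basement membrane and fibronectin were followed through 3 states of a mouse fibroblast line. The members were all genes of the array whose symbol names an integrin alpha or beta subunit or a laminin chain, together with *Fn1*, *Nid1* and *Nid2*, each represented by its brightest probe set. They number 39 of 19938 genes with a probe set of their own: 26 integrins (18 alpha and 8 beta subunits), 10 laminin chains and the 3 others. *Itgb1bp1*, *Itgb1bp2*, *Itgb2l*, *Itgb3bp* and *Itgbl1* name no subunit and were left out. RNA was taken from Trap-80 knock-down 3T3 fibroblasts after 1 h with TNF-α at 5 ng/ml, from wild-type cells stimulated in the same way and from unstimulated wild-type cells. Each group had 3 arrays, labelled as biological replicates. The question behind the comparisons was which genes depend on Trap-80, the subunit of the Mediator complex encoded by *Med17*, when the cytokine activates NF-κB. All groups were 3T3 cells with a stably expressed shRNA, directed at Trap-80 in the knock-down and at an irrelevant sequence in the cells called wild type. The knock-down cells were clonal: the study chose a single clone per hairpin and used the same hairpin in its main experiments, although the labels tie no array to a clone. Clones were also made with the irrelevant shRNA, so the cells called wild type may be clonal too. Effects of the clone and of the knock-down therefore cannot be told apart. Since unstimulated knock-down cells were not analysed here, the state of the lines at rest and their response to the cytokine cannot be told apart in the knock-down comparisons. In such bulk RNA, fewer cells of a type and less RNA per cell cannot be told apart either.

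An integrin is a membrane receptor made of an alpha and a beta subunit, and the pair decides which matrix protein it binds. Subunit beta-1 pairs with most alphas, among them the laminin receptors, the collagen receptors and the fibronectin receptor, while the alpha-v subunit also pairs with other betas to bind vitronectin and fibronectin through the RGD motif. Laminins are trimers of an alpha, a beta and a gamma chain, which nidogens tie to the collagen IV network of basement membranes, whereas fibronectin forms fibrils in the loose matrix around fibroblasts.

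Values are log2 signals, on which a difference of 1 is a 2-fold change, and a member passed where its limma p, adjusted by Benjamini-Hochberg over 23410 probe sets, was under 0.05. *Med17* had log2 values of 6.35, 6.22 and 6.17 on the knock-down arrays, against 7.98, 7.93 and 7.77 on the stimulated wild-type arrays, a log2 difference of -1.64 ± 0.09 (SE; limma adjusted p = 4.8e-05; exact permutation p = 0.1, two-sided, the smallest that 3 arrays against 3 allow). Array medians lay between 4.47 and 4.59, and arrays of a group correlated at 0.985 to 0.992 over probe sets. All 8 fibroblast markers lay above the median probe set (5.02), with a mean over the list of 10.06 to 10.31 on knock-down arrays, 9.999 to 10.27 on stimulated and 10.02 to 10.35 on unstimulated wild-type arrays. Between stimulated cells 3 of the 8 passed, 37.5% of them, against 5.96% of all tested probe sets. In the knock-down *Thy1* was at a log2 difference of 2.09, *S100a4* at 0.55 and *Pdgfra* at -1.89. Their part in the results below was not tested. Of the markers of leukocytes, endothelium, epithelium and platelets, 16 of 17 lay below the median probe set, *Ptprc* among them. In every comparison 0 of the 17 passed. Of all tested probe sets 0.115% passed for TNF-α, 5.96% between stimulated cells and 8.25% between stimulated knock-down and unstimulated wild type.

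The comparison of stimulated knock-down with stimulated wild-type cells asks which members depended on Trap-80. Of the 39 members, 6 rose and 2 fell in the knock-down. This is 20.5% of them, against 5.96% of all tested probe sets (3.36% higher and 2.6% lower). The laminin chain genes *Lama5* and *Lamb1*, the laminin receptor subunits *Itga3* and *Itga7* and the vitronectin receptor subunits *Itgb3* and *Itgb5* rose. The laminin chain gene *Lama4* and the nidogen gene *Nid1* fell. The largest rise among members was 3.61-fold (*Lama5*), and the deepest fall left 22.1% of the wild-type level (*Lama4*). The median over the 39 was -0.01, beside -0.02 over all tested probe sets. The groups did not overlap for 13 members that were higher and 6 that were lower in the knock-down, 48.7% of the members, against 20.9% of all probe sets (10.9% higher and 10% lower).

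Of the 8 calls 5 (*Itga3*, *Itga7*, *Lama4*, *Lama5*, *Nid1*) held whichever of the 9 arrays was left out, and without stimulated wild-type array 1 these were the 5 that passed. With the replicate number as a block, 11 members passed (8 higher and 3 lower), the 8 and *Itga5*, *Itga6* and *Itga11*, where 9% of all probe sets passed.

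**Figure D1:**
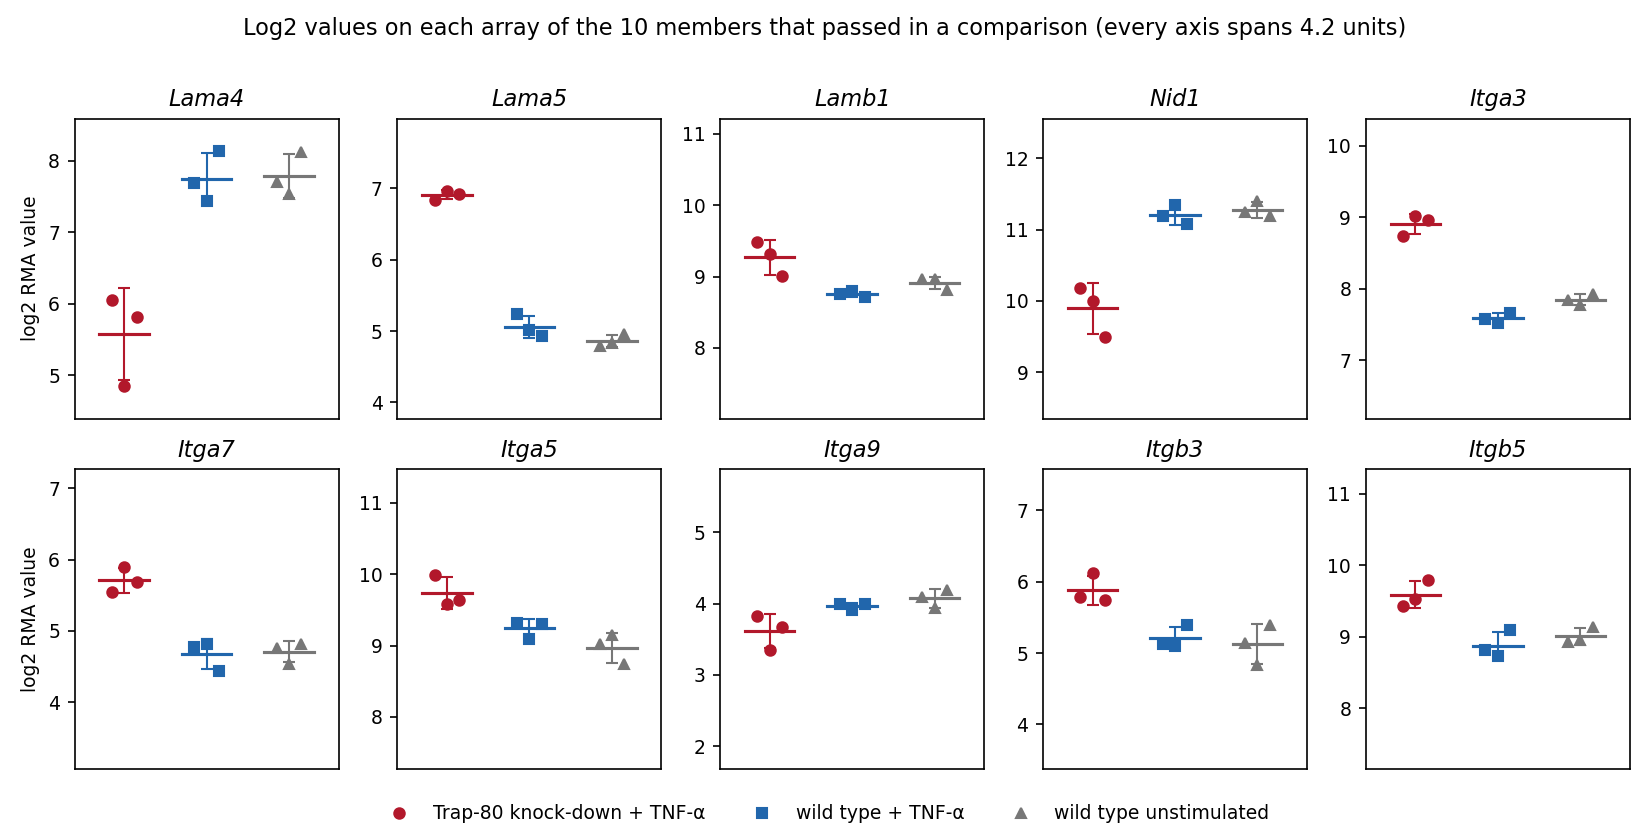
Log2 value (vertical axis, each spanning 4.2 units) on every array of the 10 members that passed in a comparison. Points are single arrays in the order of their replicate number, horizontal lines group means and bars the SD (n = 3). The knock-down points of *Lama4* (4.85 to 6.06) and *Nid1* (9.50 to 10.18) lie below those of both wild-type groups, while those of *Lama5* (6.84 to 6.96) lie above.

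Promoters of 24 of the 39 members matched the RefSeq promoter table (build GRCm38.p6), 300 bases from 250 before to 50 after the most upstream start of a gene. The 5 of members that passed are printed because they let the control regions of genes that rose (*Itga3*, *Itgb5*, *Lama5*, *Lamb1*) and of a gene that fell (*Nid1*) be read side by side. Capitals mark every match, on either strand, to the GC box with the letters GGGCGG, to the TATA box with the letters TATAAA, to the AP-1 site with the letters TGANTCA (N for any base) and to the κB consensus. The stretches lie on the minus strand at chr11:95076665-95076964 (*Itga3*) and chr2:180225810-180226109 (*Lama5*), and on the plus strand at chr16:33829415-33829714 (*Itgb5*), chr12:31265043-31265342 (*Lamb1*) and chr13:13437352-13437651 (*Nid1*).
Itga3: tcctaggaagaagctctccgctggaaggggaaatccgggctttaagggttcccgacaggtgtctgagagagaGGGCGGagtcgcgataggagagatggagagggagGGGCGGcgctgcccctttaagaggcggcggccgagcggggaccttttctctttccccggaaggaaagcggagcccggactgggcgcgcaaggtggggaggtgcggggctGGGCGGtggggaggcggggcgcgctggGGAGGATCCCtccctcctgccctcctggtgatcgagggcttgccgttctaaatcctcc
Itgb5: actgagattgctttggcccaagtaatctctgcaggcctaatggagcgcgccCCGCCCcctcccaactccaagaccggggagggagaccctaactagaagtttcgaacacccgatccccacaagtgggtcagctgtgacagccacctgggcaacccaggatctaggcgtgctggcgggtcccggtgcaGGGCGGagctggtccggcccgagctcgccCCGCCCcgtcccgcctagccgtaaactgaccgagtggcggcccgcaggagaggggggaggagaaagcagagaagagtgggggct
Lama5: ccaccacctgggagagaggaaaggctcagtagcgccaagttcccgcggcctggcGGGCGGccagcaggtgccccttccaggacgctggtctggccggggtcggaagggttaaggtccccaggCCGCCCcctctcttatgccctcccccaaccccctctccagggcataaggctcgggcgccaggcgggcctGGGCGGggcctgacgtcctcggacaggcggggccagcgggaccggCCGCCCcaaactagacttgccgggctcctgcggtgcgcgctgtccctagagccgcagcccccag
Lamb1: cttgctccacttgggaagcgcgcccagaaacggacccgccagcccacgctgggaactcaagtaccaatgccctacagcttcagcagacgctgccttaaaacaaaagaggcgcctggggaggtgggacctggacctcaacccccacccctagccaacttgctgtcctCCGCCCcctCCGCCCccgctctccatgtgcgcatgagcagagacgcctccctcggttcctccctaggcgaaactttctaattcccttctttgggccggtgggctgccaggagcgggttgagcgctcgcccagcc
Nid1: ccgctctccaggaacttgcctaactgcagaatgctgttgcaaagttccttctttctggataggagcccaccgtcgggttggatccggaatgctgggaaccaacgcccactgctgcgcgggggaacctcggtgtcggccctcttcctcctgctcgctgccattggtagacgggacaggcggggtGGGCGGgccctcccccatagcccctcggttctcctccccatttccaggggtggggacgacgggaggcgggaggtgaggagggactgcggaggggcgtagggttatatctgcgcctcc

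The GC box, which SP1-family factors bind, was found 3 times for *Itga3*, 3 for *Itgb5*, 4 for *Lama5*, 2 for *Lamb1* and 1 time for *Nid1*, and the single κB match stood in *Itga3*. No match overlapped another in these 5 stretches. Among the 24 promoters 12 held a GC box, 2 an AP-1 site (*Itga9*, *Itgax*), 2 a κB match (*Itga3*, *Lamb3*) and 0 a TATA box, against 35.9%, 7.92%, 8.19% and 14.2% of 27025 promoters of the same length. The GC content of the printed stretches was 63.7% to 72.7%, with a median of 52.7% over all promoters. A match is a description of letters and says nothing of binding.

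*Lama4* encodes an alpha chain of laminins that mesenchymal and endothelial cells make. It had log2 values of 6.06, 4.85 and 5.81 on the knock-down arrays, against 7.69, 7.43 and 8.13 on the stimulated and 7.70, 7.54 and 8.13 on the unstimulated wild-type arrays. Every knock-down array lay below every wild-type array, and knock-down array 2 was the lowest. The knock-down fell to 22.1% of stimulated wild type, a log2 difference of -2.18 ± 0.31 (SE; adjusted p = 0.0037). *Lama5* encodes the alpha chain that is most widespread in adult basement membranes. Its log2 values were 6.84, 6.96 and 6.93 in the knock-down, against 5.23, 5.01 and 4.93 in stimulated and 4.78, 4.84 and 4.95 in unstimulated wild-type cells. The 3 knock-down arrays stood close together and far above all 6 wild-type arrays, and *Lama5* was 3.61-fold higher (log2 1.85 ± 0.09, adjusted p = 2.7e-05). Its wild-type values, except that of stimulated array 1, lay below the median probe set (5.02). The genes of the other alpha chains, *Lama1*, *Lama2* and *Lama3*, lay below the median probe set and differed by -0.10 to -0.01 on the log2 scale. Among 5 alpha chains 1 thus rose and 1 fell, 40% of them, against 5.96% of all tested probe sets.

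*Lamb1* encodes a beta chain found in many laminins. It measured 9.49, 9.31 and 9.01 in the knock-down, against 8.75, 8.80 and 8.71 in stimulated and 8.96, 8.96 and 8.82 in unstimulated wild-type cells. The knock-down arrays were higher than all others, though knock-down array 3 by little, and the log2 difference from stimulated wild type was 0.52 ± 0.11 (1.43-fold, adjusted p = 0.030). The call held without knock-down array 3 or unstimulated array 3 and was lost without any 1 of the other 7 arrays, at adjusted p values of 0.052 to 0.10, and also with only the 6 arrays compared (0.081) or all deposited probe sets (0.071). *Lamb2* and *Lamc1*, for the beta chain known from neuromuscular junctions and the gamma chain shared by most laminins, were at log2 differences of 0.14 (95% interval -0.04 to 0.32) and 0.17 (-0.12 to 0.45), with all knock-down arrays above the stimulated wild-type arrays but neither past the test. *Lamb3* and *Lamc3* differed by -0.01 and -0.17.

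*Nid1*, the linker between laminin and collagen IV, had log2 values of 10.18, 10.002 and 9.50 in the knock-down, against 11.19, 11.34 and 11.07 in stimulated and 11.24, 11.40 and 11.19 in unstimulated wild-type cells. No knock-down array reached a wild-type one, and the gene fell to 40.5% (log2 -1.31 ± 0.16, adjusted p = 0.0019). Its relative *Nid2* measured 7.17, 6.89 and 7.40 in the knock-down, against 7.34, 6.93 and 7.87 in stimulated and 7.34, 7.17 and 7.97 in unstimulated wild-type cells. These groups overlapped, with array 2 lowest and array 3 highest in each, and the log2 difference of -0.22 (95% interval -0.82 to 0.38, adjusted p = 0.74) did not pass. *Fn1*, the fibronectin gene, had 11.38, 11.06 and 11.36 in the knock-down, against 11.45, 11.34 and 11.60 in stimulated and 11.36, 11.36 and 11.23 in unstimulated wild-type cells. The groups overlapped here too, and the log2 difference was -0.20 (-0.43 to 0.04, adjusted p = 0.39).

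Of the 18 alpha subunits 2 rose and 0 fell, 11.1% of them, against 5.96% of all tested probe sets. These were *Itga3* and *Itga7*, which bind laminin, as *Itga6* does. *Itga3*, the partner of beta-1 in a receptor for laminins with the *Lama5* chain, measured 8.74, 9.02 and 8.96 in the knock-down, against 7.57, 7.52 and 7.66 in stimulated and 7.85, 7.78 and 7.92 in unstimulated wild-type cells. The groups were well apart, and the knock-down was 2.50-fold higher than stimulated wild type (log2 1.32 ± 0.09, adjusted p = 1.0e-04). *Itga7*, the laminin receptor subunit best known from muscle, had 5.54, 5.89 and 5.69 in the knock-down, against 4.78, 4.82 and 4.44 in stimulated and 4.76, 4.54 and 4.82 in unstimulated wild-type cells. All knock-down arrays exceeded all wild-type arrays, and the difference was 2.04-fold (log2 1.03 ± 0.13, adjusted p = 0.0023). Its wild-type values all lay below the median probe set (5.02). *Itga6* read 8.50, 8.32 and 8.09 in the knock-down, against 7.62, 7.97 and 7.47 in stimulated and 7.87, 8.31 and 7.36 in unstimulated wild-type cells. Its stimulated groups did not overlap, yet the log2 difference of 0.61 ± 0.23 had an adjusted p of 0.19, and of 0.035 with the replicate block. Unstimulated array 2 lay above knock-down array 3, so the knock-down and unstimulated groups overlapped (log2 difference 0.46, limma adjusted p = 0.30).

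Among the alphas that bind RGD sequences 0 of 4 passed, against 5.96% of all tested probe sets, and so few genes cannot set the class apart. *Itga5*, the alpha subunit of the fibronectin receptor, measured 9.99, 9.59 and 9.64 in the knock-down, against 9.32, 9.10 and 9.30 in stimulated and 9.02, 9.15 and 8.74 in unstimulated wild-type cells. Its groups did not overlap, and the log2 difference was 0.50 ± 0.14 (adjusted p = 0.074, and 0.0495 with the block). *Itgav*, the subunit shared by the vitronectin receptors, had 9.58, 9.37 and 9.38 in the knock-down, against 9.46, 9.45 and 9.52 in stimulated and 9.38, 9.34 and 8.99 in unstimulated wild-type cells. Knock-down arrays lay on both sides of the stimulated wild-type arrays, with a difference of -0.03 (95% interval -0.28 to 0.21). *Itga2b* and *Itga8* were at -0.15 and 0.07.

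Of the 4 collagen-binding alphas 0 passed, against 5.96% of all tested probe sets, again too few genes to set the class apart. *Itga11*, a collagen receptor subunit of fibroblasts, had log2 values of 7.21, 6.70 and 7.69 in the knock-down, against 7.84, 7.32 and 8.58 in stimulated and 7.92, 7.64 and 8.76 in unstimulated wild-type cells. The groups overlapped, but within each replicate number the knock-down array was the lowest of the 3. Its log2 difference was -0.71 ± 0.38 (adjusted p = 0.40), and with the replicate block -0.71 ± 0.09 (adjusted p = 0.0027), the largest shift in adjusted p between these models among the members whose call changed. *Itga1*, *Itga10* and *Itga2* were at -0.04, 0.12 and -0.11. *Itga9*, a receptor subunit for tenascin-C and VCAM-1, read 3.83, 3.35 and 3.67 in the knock-down, against 3.99, 3.91 and 3.99 in stimulated and 4.10, 3.93 and 4.19 in unstimulated wild-type cells. All knock-down values were the lower ones, on a probe set below the median of all, and the log2 difference of -0.35 ± 0.12 did not pass (adjusted p = 0.16). Its relative *Itga4* was at 0.22 (adjusted p = 0.27). The 5 alphas of leukocytes (*Itgad*, *Itgae*, *Itgal*, *Itgam*, *Itgax*) differed by -0.07 to 0.05, with overlapping groups for each, and 4 of the 5 lay below the median probe set. A second, dimmer probe set of *Itgad* was at 0.11.

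Of the 8 beta subunits 2 rose, *Itgb5* and *Itgb3* (25%, against 5.96% of all tested probe sets). *Itgb5* measured 9.44, 9.53 and 9.80 in the knock-down, against 8.81, 8.72 and 9.09 in stimulated and 8.92, 8.96 and 9.14 in unstimulated wild-type cells. The knock-down arrays were the 3 highest, and the difference was 1.64-fold (log2 0.71 ± 0.13, adjusted p = 0.011, and 0.052 without stimulated wild-type array 1). *Itgb3* had 5.78, 6.11 and 5.74 in the knock-down, against 5.13, 5.09 and 5.39 in stimulated and 5.15, 4.83 and 5.39 in unstimulated wild-type cells. The knock-down arrays were again the 3 highest, at a log2 difference of 0.68 ± 0.16 (1.60-fold, adjusted p = 0.037). The call was lost without any 1 of the 3 knock-down arrays, stimulated wild-type array 1 or 2 or unstimulated array 1, at adjusted p values of 0.066 to 0.13, and with all deposited probe sets (0.087). *Itgb1*, the common partner subunit, measured 11.34, 11.14 and 11.22 in the knock-down, against 11.39, 11.38 and 11.37 in stimulated and 11.43, 11.40 and 11.35 in unstimulated wild-type cells. Its knock-down values were slightly the lower ones, with a log2 difference of -0.15 (95% interval -0.31 to 0.01, adjusted p = 0.32). The 5 other betas (*Itgb2*, *Itgb4*, *Itgb6*, *Itgb7*, *Itgb8*) lay between -0.15 (*Itgb2*) and 0.31 (*Itgb8*).

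**Figure D2:**
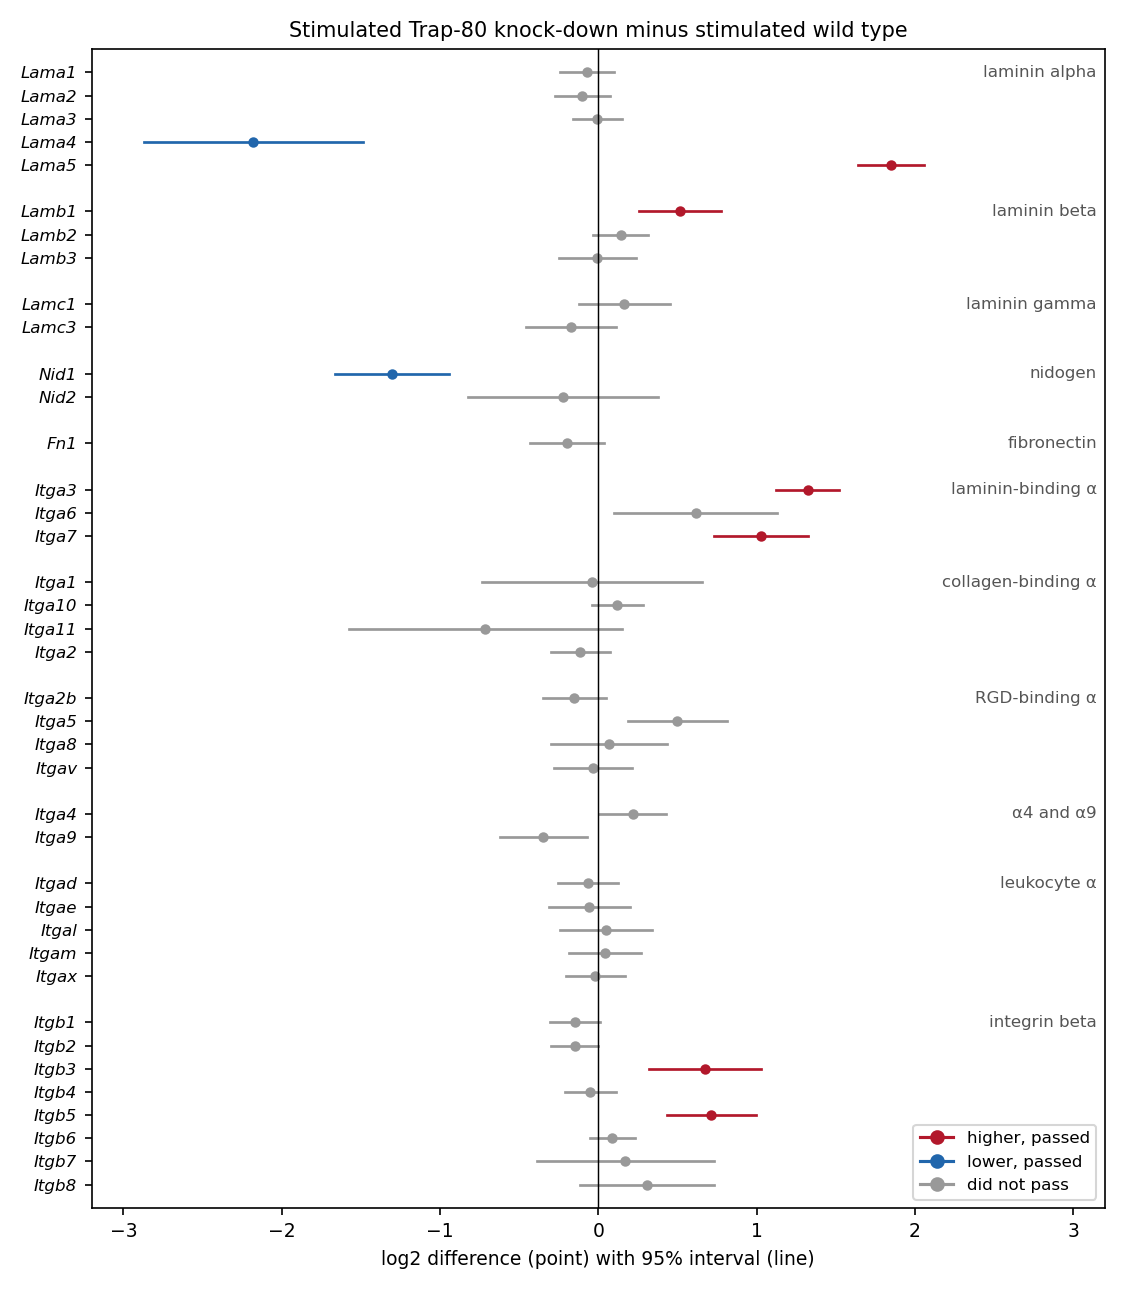
Log2 difference of stimulated knock-down minus stimulated wild type (horizontal axis) for each of the 39 members, grouped by role. Points are limma estimates and lines their 95% intervals. Red marks the 6 members that rose and blue the 2 that fell, from *Lama4* at -2.18 to *Lama5* at 1.85, and the 31 in grey lie between -0.71 (*Itga11*) and 0.61 (*Itga6*).

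The comparison within wild-type cells asks which members responded to TNF-α in 1 h, and 0 of the 39 passed, against 0.115% of all tested probe sets (0.111% higher and 0.00427% lower). Before adjustment 1 member, *Itga2*, was higher and 1, *Itga3*, lower at a p under 0.05, which is 5.13% of the members, against 7.1% of all probe sets (3.52% higher and 3.58% lower). With the replicate block 0 members passed as well, against 0.235% of all probe sets. The differences of the 39 ran from -0.27 to 0.38, with a median of 0.01. The groups did not overlap for 3 higher members (*Itga2*, *Itgav*, *Itgb2*) and 3 lower ones (*Itga3*, *Lamb1*, *Lamb2*), 15.4% against 10.2% of all probe sets (4.01% higher and 6.18% lower).

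*Itga2*, a collagen receptor subunit, had log2 values of 4.09, 4.26 and 4.22 in stimulated, against 3.71, 3.93 and 3.80 in unstimulated wild-type cells. The stimulated arrays were all higher, on a probe set below the median of all, and the log2 difference was 0.38 ± 0.08 (unadjusted p = 0.0013, adjusted p = 0.28). For *Itga3*, whose values are given above, every stimulated wild-type array was lower than every unstimulated one, by 0.27 in the mean (log2 -0.27 ± 0.09, adjusted p = 0.64). *Itga5* was at 0.27 (95% interval -0.04 to 0.58), *Itgav* at 0.24 (-0.01 to 0.49), *Lama5* at 0.20 (-0.01 to 0.41) and *Fn1* at 0.15 (-0.09 to 0.38). *Lama4* was at -0.04 (-0.73 to 0.66) and *Nid1* at -0.08 (-0.44 to 0.28), and the interval of *Lama4* was the widest of these 6.

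**Figure D3:**
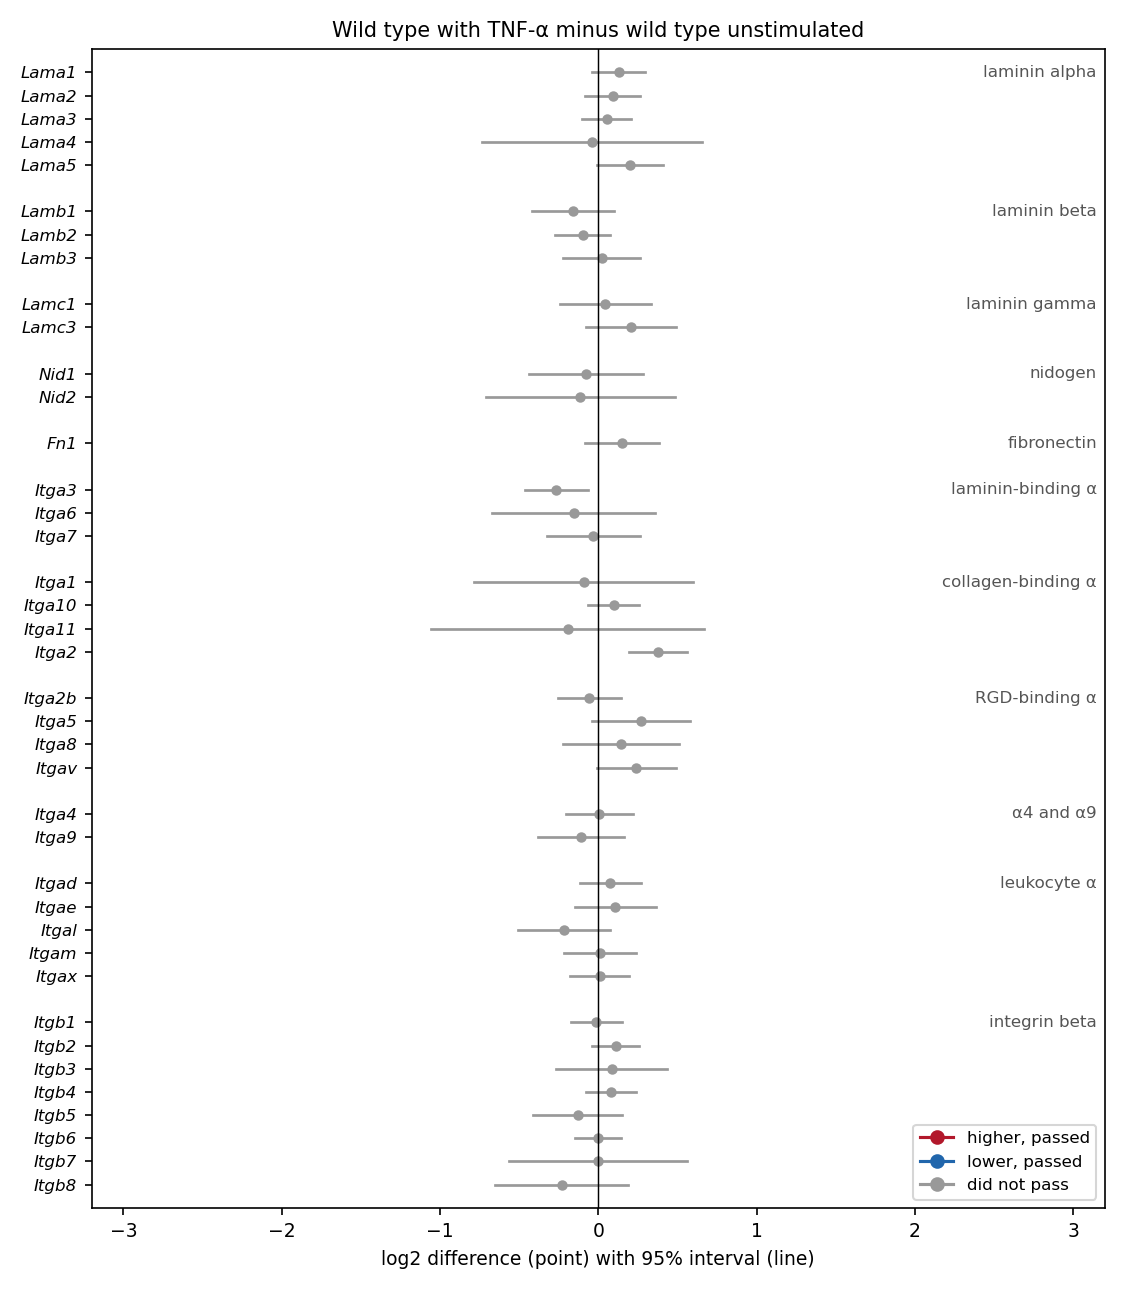
Log2 difference of wild type with TNF-α minus unstimulated wild type (horizontal axis, the same range as for the knock-down) for the 39 members by role, as limma estimates (points) with 95% intervals (lines). All points are grey because 0 members passed, and they lie between -0.27 (*Itga3*) and 0.38 (*Itga2*).

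The remaining pair, stimulated knock-down against unstimulated wild type, changes the cell line and the cytokine together and shares its arrays with the comparisons above. Here 6 members rose and 3 fell, 23.1% of the 39, against 8.25% of all tested probe sets (3.64% higher and 4.62% lower), and the groups did not overlap for 38.5%, against 23.4%. *Lama5* was at a log2 difference of 2.05 ± 0.09 (4.14-fold), *Itga3* at 1.06 ± 0.09 and *Itga7* at 1.00 ± 0.13. *Itga5* passed in this comparison, at 0.77 ± 0.14 (1.71-fold, adjusted p = 0.0092), and all 3 knock-down arrays were above all 3 unstimulated ones. Between stimulated cells the same gene was at 0.50, and between wild-type groups at 0.27.

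*Lama4* was at -2.22 ± 0.31 and *Nid1* at -1.38 ± 0.16, close to their differences from stimulated wild type. *Itga9* passed narrowly at -0.46 ± 0.12 (adjusted p = 0.0498), which held without knock-down array 1 (0.031) and not without any 1 of the other 8 (0.060 to 0.14). In all it was lost under 12 of 17 alternatives, also with only the 6 arrays compared (0.12), all deposited probe sets (0.094), a trend (0.052) or robust eBayes (0.051). *Itgb3*, at 0.76 ± 0.16, lost its call without knock-down array 2 or unstimulated array 1 or 2 (adjusted p 0.051 to 0.063) and with only the 6 arrays compared (0.0502). *Itgb5*, at 0.58 ± 0.13, lost it without knock-down array 2 or 3 or unstimulated array 1 or 2 (0.054 to 0.085). *Lamb1* was at 0.36 ± 0.11 (adjusted p = 0.10), and *Itga11* at -0.91 ± 0.38 (adjusted p = 0.22). With the replicate block their limma adjusted p values were 0.044 and 7.8e-04, though same-numbered arrays of these groups correlated at only 0.002 to 0.221.

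Genes that work with these receptors and chains were described through 3 further lists. Of 21 measured partners of laminin in the basement membrane, 5 rose and 1 fell between knock-down and wild type after stimulation, 28.6% of the list, against 5.96% of all tested probe sets, with a median of 0.07. The collagen IV chain genes *Col4a1* and *Col4a2*, which form the network that nidogen ties to laminin, were at log2 differences of 0.52 and 0.57, and *Col4a5* at 0.82. *Col18a1*, the collagen XVIII gene, rose by 1.07 ± 0.13 (2.09-fold, adjusted p = 0.0021) and *Ntn4*, for a laminin-related netrin, by 0.68 ± 0.11. *Col18a1* measured 7.23, 7.08 and 6.91 in the knock-down, against 5.93, 5.91 and 6.18 in stimulated wild-type cells, without overlap. *Smoc1*, for a secreted basement membrane protein, fell by 0.97 (adjusted p = 0.0097). *Col18a1*, *Ntn4* and *Smoc1* passed whichever of the 9 arrays was left out, and they were the 3 that passed without stimulated wild-type array 2, knock-down array 1 or knock-down array 3. The probe sets of *Ntn4* and *Smoc1* lay below the median of all, with means of 4.36 and 4.57 over the 9 arrays.

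Of 21 other ligands of integrins, 2 rose and 3 fell, 23.8% of the list, against 5.96% of all tested probe sets, with a median of -0.13. *Npnt*, for the ligand nephronectin of the *Itga8* receptor, had 5.74, 5.55 and 5.93 in the knock-down, against 7.44, 6.87 and 7.59 in stimulated wild-type cells. All knock-down values were the lower ones, and the gene fell to 33.9% (log2 -1.56 ± 0.19, adjusted p = 0.0017). *Tgfb1*, whose latent protein alpha-v integrins bind, rose by 0.78 ± 0.13 (1.72-fold, adjusted p = 0.0068), and *Edil3*, for an RGD protein, by 0.99 ± 0.20 (adjusted p = 0.022). The probe set of *Edil3* lay below the median of all. *Postn*, the periostin gene, had 8.43, 6.57 and 9.58 in the knock-down, against 11.02, 10.78 and 11.78 in stimulated wild-type cells. Those knock-down arrays were lower and far apart from each other, and the log2 difference was -2.99 ± 0.63 (adjusted p = 0.024). *Thbs1*, the thrombospondin-1 gene, fell by 0.83 (adjusted p = 0.047). Whichever of the 9 arrays was left out, *Npnt* and *Tgfb1* passed. They were the 2 that did without stimulated wild-type array 1, and 3 genes passed without stimulated wild-type array 2, knock-down array 1 or knock-down array 3. With the replicate block 8 passed (4 in each direction), where 9% of all probe sets did.

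Of 30 genes of focal adhesions and integrin activation, 3 rose and 0 fell, 10% of the list, against 5.96% of all tested probe sets, with a median of 0.14. *Actn1*, for the actin crosslinker alpha-actinin, measured 10.12, 10.07 and 10.15 in the knock-down, against 9.36 on each of the 3 stimulated wild-type arrays. It was 1.69-fold higher (log2 0.75 ± 0.07, adjusted p = 6.5e-04) and the single gene of the list that passed without stimulated wild-type array 1. *Parvb*, for an adaptor of integrin-linked kinase, rose by 1.11 ± 0.20 (adjusted p = 0.012) and *Fermt2*, for the integrin activator kindlin-2, by 0.30 ± 0.07 (adjusted p = 0.045). *Tln1*, the talin gene, was at 0.26 (adjusted p = 0.059) and *Vcl*, the vinculin gene, at 0.15 (adjusted p = 0.40). With the block 8 passed (6 higher and 2 lower), where 9% of all probe sets did. With arrays centred on their medians 5 passed, a setting not counted over all probe sets. Of the 30 genes 2 lay below the median probe set, against 11705 of 23410 tested, so the list is brighter than its background. To a lesser degree this holds for the laminin partners (8 of 21 below), the other ligands (6 of 21) and the members (16 of 39). The part of brightness in these shares was not tested.

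In wild-type cells 0 genes of the 3 lists passed for TNF-α. *Vcam1*, the ligand of integrins with the alpha-4 and alpha-9 subunits, had log2 values of 10.93, 10.93 and 11.59 in stimulated, against 9.73, 9.55 and 10.14 in unstimulated wild-type cells. *Icam1*, a ligand of leukocyte integrins, had 5.92, 6.0 and 6.56 in stimulated, against 4.90, 4.79 and 5.22 in unstimulated wild-type cells. For both the stimulated arrays were all higher, at log2 differences of 1.35 (adjusted p = 0.084) and 1.19 (adjusted p = 0.13), and both passed with the replicate block. Between stimulated cells they were at 0.16 and -0.28 in the knock-down, with overlapping groups.

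**Figure D4:**
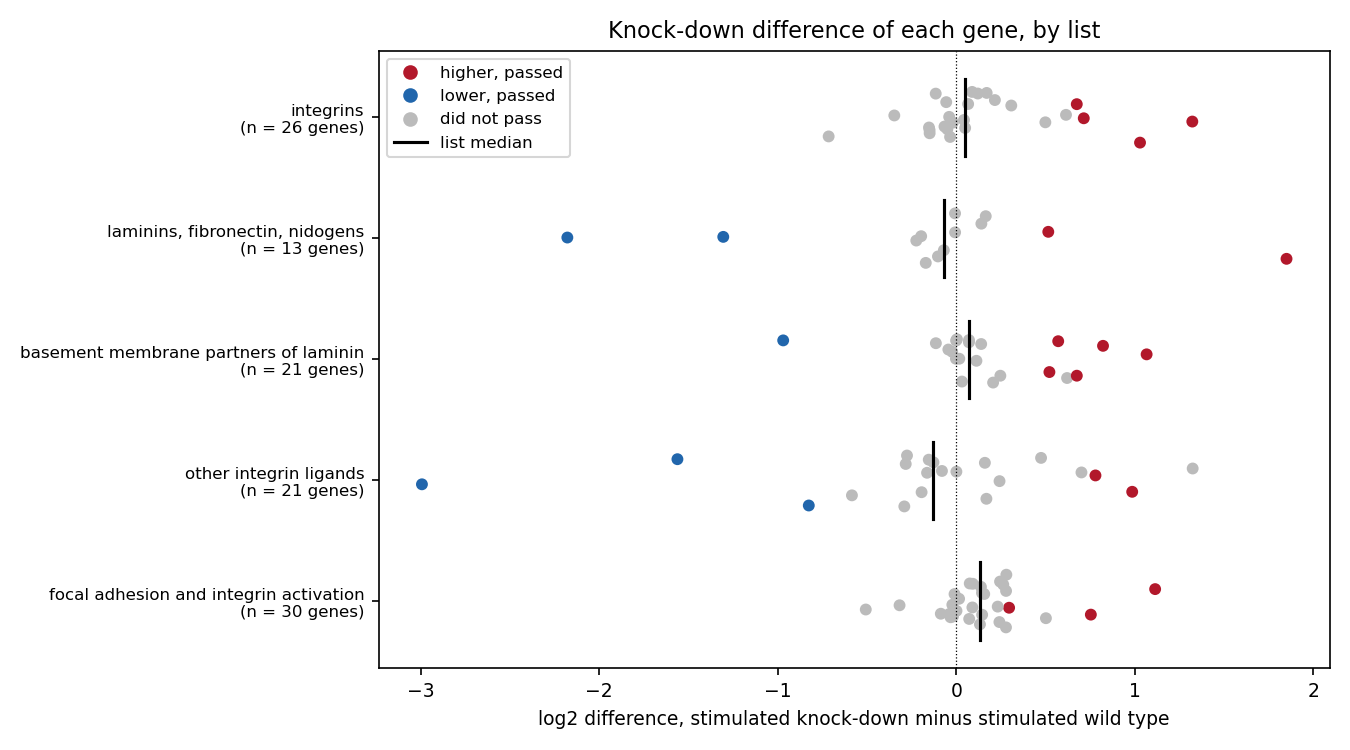
Log2 difference of stimulated knock-down minus stimulated wild type (horizontal axis) of every measured gene, in rows for the 26 integrins, the 13 matrix members and the 3 further lists. Points are genes, scattered vertically for legibility, coloured by whether they rose, fell or did not pass, and black bars are list medians. The integrin row holds 4 genes that rose and 0 that fell, while the row of laminins, fibronectin and nidogens holds 2 of each.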

How the data were processed

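RNA from 9 cultures of 3T3 fibroblasts was hybridised to Affymetrix Mouse Gene ST arrays. The authors deposited log2 values made with RMA (version not given in the sources), which corrects the background, normalizes arrays by quantiles and summarises the probes of a probe set. It pulls dim probe sets towards a common floor, where small differences are compressed. Of 35557 probe sets, 21789 listed 1 gene symbol, 1621 several and 12147 are unnamed here. The 23410 with a gene were tested without rescaling, and only those with 1 symbol were named.

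A single model with a mean per group was fitted to the 9 arrays (limma 3.58.1 in R 4.3.3, lmFit and eBayes) after being tested on simulated data, with Benjamini-Hochberg adjustment and a threshold of 0.05. The median SE of a log2 difference was 0.11 over the members, which the 3 arrays per group limit. An exact permutation test was added for *Med17*. Members that passed in a comparison, and *Fn1*, *Nid1*, *Nid2*, *Itgb1* and *Itgav*, are given with their value on every array; *Itga2*, *Itga6*, *Itga11* and the genes of the lists were named after their values were seen. The members and lists were chosen with earlier results of these data known. Genes of the lists without a matching probe set, and some items not reported here, were left out.

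The groups share replicate numbers. Deviations from the group means correlated between same-numbered arrays, at 0.110 to 0.403 for TNF-α and at 0.147 to 0.465 for the knock-down. Arrays with different numbers correlated at -0.402 to 0.249 for TNF-α and at -0.392 to 0.160 for the knock-down. Because deviations cancel within a group, the ranges for same and different numbers are not independent of each other. Unstimulated array 2 went more with stimulated wild-type array 1 (0.249) than with array 2 (0.110). The numbers may pair these samples, but the correlations do not tell arrays 1 and 2 apart and no source says what a number marks. The main model has no block, so p values, SEs and intervals ignore such a pairing except where the replicate block is named. Between stimulated knock-down and unstimulated wild type, same-numbered arrays correlated at 0.002 to 0.221. If the numbers pair the other groups, they pair these too, so values with the block are also given for this comparison. Alternatives were the replicate block, only the 6 arrays compared, all probe sets, a filter on dim probe sets, centred or quantile-normalized arrays, a trend or robust eBayes, means over a gene's probe sets, a filter after the study's methods and leaving out each array; those for the lists were chosen after seeing the data.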

Additional observations from a re-analysis of the deposited data

How the results depend on the processing

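For the knock-down, 6 to 11 of the 39 members passed under the alternatives that kept all arrays of that comparison, and 5 to 9 with 1 array left out, lowest without stimulated wild-type array 1. Against unstimulated wild type, 7 to 12 passed, and 6 to 9 with 1 array left out. For TNF-α 0 passed, also with any array left out, except 4 (3 higher and 1 lower) by the filter after the study's methods, which adjusts no p. Of the alternatives, only the replicate block was also counted over all probe sets, so the other counts have no background share. With the replicate block 11 members passed for the knock-down, 11 against unstimulated wild type and 0 for TNF-α. Over all probe sets it gave 1156 higher and 952 lower for the knock-down and 51 and 4 for TNF-α, against 786 and 609, and 26 and 1. Against unstimulated wild type, where same-numbered arrays correlated at 0.002 to 0.221, it gave 1213 higher and 1609 lower, against 851 and 1081. There *Itga11* (-0.91, limma adjusted p = 7.8e-04) and *Lamb1* (0.36, limma adjusted p = 0.044) passed beside the 9. *Med17* stayed past the threshold at -1.70 to -1.60 with 1 array left out. For the members given on every array, 696 of 753 alternative values kept their direction and side of the threshold, 37 lost it, 6 gained it and 14 changed sign, of differences near 0 that did not pass; the cause was not tested. For the knock-down, *Itgav* was at 0.023 with centred arrays and at -0.103 to 0.0034 with 1 array left out, and *Nid2* at -0.45 to 0.021. For TNF-α, *Lama4* was at 0.017 after quantile normalization and at -0.23 to 0.13 with 1 array left out, *Nid2* at -0.36 to 0.12, *Itga7* at -0.11 to 0.091, *Itgb3* at -0.063 to 0.22 and *Itgb1* at -0.034 to 0.0069. Against unstimulated wild type, *Fn1* was at -0.11 to 0.054. Of the members, 16 lay below the median probe set, where depth of signal limits what a difference can show, and 18 had identical values on 2 or more arrays (46.2%, against 58.9% of all tested probe sets).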
